A study of Mus musculus with 20 samples.

Results

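The genes described here are 9 basic helix-loop-helix (bHLH) transcription factor genes, Neurog1, Neurog2, Neurod1, Neurod2, Neurod4, Atoh1, Olig1, Olig2 and Hand1, matched by symbol in the deposited tables. All 9 were among the 25965 genes of the chromatin table, and 8 were also among the 25067 genes of the RNA table, so the RNA of Neurod1 is not analysed here. The group is neural for 8 members. Hand1 acts in heart and trophoblast and is not a neural gene, so it is given by its own name throughout.

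bHLH factors bind DNA at E-box motifs as dimers, in most cases with a widely expressed E protein. The proneural factors start neuronal differentiation in dividing progenitors, the NeuroD factors act in their neuronal progeny, and the Olig factors act in motor neuron and oligodendrocyte lineages. Id proteins sequester E proteins, and Hes and Hey proteins repress proneural genes downstream of Notch. KMT2B is a histone methyltransferase that places methyl groups on lysine 4 of histone H3. H3K4me3 is typical of active and poised promoters and H3K27me3 of promoters bound by Polycomb complexes. Promoters with both marks are called bivalent, and many genes of embryonic lineage factors belong to this class in stem cells.

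The cells were mouse germline stem cells (GSCs), cultures of spermatogonial stem cells kept on fibroblast feeder cells. Knockout cells (FC/FC) were floxed Kmt2b cells treated with 1 μM 4-hydroxytamoxifen (4-OHT), and control cells (F/F) were floxed cells mock-treated with ethanol. Both were taken 6 days after treatment, and both carried Rosa26-CreERT2, so loss of Kmt2b and exposure to 4-OHT cannot be told apart. Duplicate cell lines gave 2 knockout and 2 control libraries each of H3K4me3, H3K27me3, input DNA and RNA. H3K9me3 was profiled in 2 control libraries with 2 inputs of their own, whose harvest day and treatment are not given.

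Chromatin values are mapped reads scaled to library size (RPM) in 1 window per gene, whose size the sources used here do not give, and RNA values are RPM per gene. Depth ran from 3830045 to 18035121 mapped reads in H3K4me3, from 10538531 to 14810131 in H3K27me3 and from 38458004 to 45771855 in RNA. H3K4me3 knockout replicate 1 was the shallowest library, with 20.7% of its reads in gene windows against 25.6% to 29.0% in the other 3. Kmt2b itself (listed as Wbp7) had 131 and 185 RPM of RNA in knockout cells and 142 and 150 RPM in control cells (log2 change 0.09, limma adjusted p = 0.798). The labels do not give the deleted exons, and a count over the whole gene can hold reads outside them, so these values do not check the labels. Of the 15 germ cell markers listed in the RNA table, 14 averaged at least 1 RPM. Their summed level was 2791 and 3057 RPM in knockout cells and 2928 and 2893 RPM in control cells.

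The genes lie on 7 chromosomes of build mm10. Olig2 (chr16:91225550-91228677, plus strand) and Olig1 (chr16:91269769-91271939, plus strand) have starts 44219 bp apart. Neurog1 lies at chr13:56250505-56252163 on the minus strand and Neurog2 at chr3:127633136-127635631 on the plus strand. Atoh1 lies at chr6:64729146-64731233 on the plus strand, Neurod2 at chr11:98325415-98329648, Neurod4 at chr10:130268153-130280240 and Hand1 at chr11:57828705-57832818, all 3 on the minus strand. Neurod1 (chr2:79452521-79456751, minus strand) starts 34 bp from Cerkl, a ceramide kinase-like gene. The windows of the pair held nearly the same reads in every library, so the Neurod1 window cannot be told apart from that of Cerkl.

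Promoter sequences, from 250 bases before to 50 bases after the RefSeq start (GRCm38.p6), were given for 7 of the 9 genes, all but Olig1 and Hand1. They are shown for the tested member with the largest log2 fall in H3K4me3 (Olig2), for a pair that also fell (Neurog2 and Atoh1) and for the member with the least H3K4me3 (Neurod4). Each reads 5′ to 3′ on the strand of its gene, and capitals mark the dinucleotide CG, which reads the same on both strands.
Olig2, chr16:91225300-91225599: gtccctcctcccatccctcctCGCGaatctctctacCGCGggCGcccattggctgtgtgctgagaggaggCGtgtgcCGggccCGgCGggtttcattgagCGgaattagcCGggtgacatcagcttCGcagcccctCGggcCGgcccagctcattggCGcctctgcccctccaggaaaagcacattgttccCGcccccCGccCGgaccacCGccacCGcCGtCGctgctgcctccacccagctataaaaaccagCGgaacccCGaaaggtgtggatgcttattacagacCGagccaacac
Neurog2, chr3:127632886-127633185: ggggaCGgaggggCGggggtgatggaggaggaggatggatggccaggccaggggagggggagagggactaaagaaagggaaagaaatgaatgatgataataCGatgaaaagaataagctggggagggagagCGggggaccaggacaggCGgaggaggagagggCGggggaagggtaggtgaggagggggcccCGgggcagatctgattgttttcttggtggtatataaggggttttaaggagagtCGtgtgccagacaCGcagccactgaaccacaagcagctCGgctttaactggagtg
Atoh1, chr6:64728875-64729174: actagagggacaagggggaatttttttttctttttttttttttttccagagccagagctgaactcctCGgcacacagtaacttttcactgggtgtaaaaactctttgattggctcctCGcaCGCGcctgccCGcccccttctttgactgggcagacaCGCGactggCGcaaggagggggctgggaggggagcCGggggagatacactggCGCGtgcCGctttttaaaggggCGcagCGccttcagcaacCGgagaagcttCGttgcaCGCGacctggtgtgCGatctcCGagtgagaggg
Neurod4, chr10:130280205-130280504: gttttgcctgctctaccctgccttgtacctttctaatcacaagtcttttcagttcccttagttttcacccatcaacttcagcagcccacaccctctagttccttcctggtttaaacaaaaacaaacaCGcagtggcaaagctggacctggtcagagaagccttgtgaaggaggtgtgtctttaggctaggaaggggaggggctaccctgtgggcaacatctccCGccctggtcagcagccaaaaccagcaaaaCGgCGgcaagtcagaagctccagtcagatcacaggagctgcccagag
The Olig2 promoter held 25 CG, the Atoh1 promoter 20, the Neurog2 promoter 10 and the Neurod4 promoter 4. Among the members not printed, Neurog1 had 32, Neurod1 26 and Neurod2 16. Over the 16010 promoters matched to a window the median was 14, and 95.1% held at least 1. Neurod4 stood in the range of 0 to 4 CG, in which 7.98% of windows carried H3K4me3 in control cells, whereas 96.4% did so among promoters with 20 or more. Neurog2 and Neurod2 stood in the range of 10 to 19, where 91.4% did so. Neurod2 nevertheless missed the H3K4me3 threshold given below in control replicate 2 (log2 ratio 1.27). A link between CG count and the members' H3K4me3 was not tested.

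H3K4me3 fell in knockout cells at 5 of the 8 members that could be tested, by 3.06-fold to 4.88-fold (limma on the log2 values, adjusted p under 0.05 over all windows). They were the proneural genes Neurog1, Neurog2 and Atoh1, the neuronal differentiation gene Neurod1 and the oligodendrocyte and motor neuron gene Olig2. Among all 15624 windows tested, 9.9% were called lower and 0.0512% higher. Olig1, Neurod2 and Hand1 did not pass the test, and Neurod4 was below the minimum mean of 1 RPM. The median log2 change of the 8 members was -1.76, beside -0.26 over all windows tested.

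The 2 neurogenins and Atoh1 specify neuronal precursors. Neurog1, which directs sensory neuron fate, had 2.09 and 6.33 RPM of H3K4me3 in the knockout libraries and 11.3 and 15.4 RPM in the control libraries. Both knockout values lay well under both control values, but the knockout replicates also stood far apart. The log2 change was -1.86 ± 0.48 (SE), with a limma adjusted p of 0.00863. Neurog2, a proneural factor of the cortex and spinal cord, had 3.13 and 5.43 RPM in knockout cells and 12.5 and 17.2 RPM in control cells. Again the groups did not overlap, and the log2 change was -1.83 ± 0.46 (SE, limma adjusted p = 0.00718). Atoh1, which is needed for cerebellar granule neurons and inner ear hair cells, had 3.13 and 7.36 RPM in knockout cells and 13.6 and 17.3 RPM in control cells. Its higher knockout library remained under its lower control library (log2 change -1.68 ± 0.44, SE, limma adjusted p = 0.00947).

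The NeuroD genes act later, in neurons that are already forming. The window of Neurod1, which it shares with Cerkl, had 2.87 and 4.34 RPM of H3K4me3 in knockout cells and 10.1 and 11.5 RPM in control cells. It fell by 1.61 on the log2 scale (SE 0.50, limma adjusted p = 0.0264), with the replicates closer together than at the neurogenins. Neurod2, a factor of maturing cortical neurons, had only 0.783 and 0.905 RPM in knockout cells and 2.70 and 2.05 RPM in control cells. The groups did not overlap, yet the change missed the threshold (log2 -1.48, 95% interval -2.97 to 0.00, limma adjusted p = 0.202). Neurod4 had almost no H3K4me3, with 0.261 and 0.302 RPM in knockout cells and 0.772 and 0.721 RPM in control cells. These values stand for 1 and 5 reads in the knockout libraries and 8 and 13 in the control libraries, and its ratio to input was not called in control cells.

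The neighbouring Olig genes had unlike values. Olig2 had 1.04 and 3.20 RPM in knockout cells and 8.98 and 8.87 RPM in control cells. This was the largest fall on the log2 scale among the members tested, though not in RPM. Its knockout values rest on 4 and 53 reads, and its log2 change was -2.29 ± 0.58 (SE, limma adjusted p = 0.00745). Olig1, which promotes oligodendrocyte maturation, kept the highest H3K4me3 of the 9 in knockout cells, with 10.2 and 12.8 RPM there and 16.02 and 18.1 RPM in control cells. Its 2 groups did not overlap either, but the log2 change of -0.57 was not called (95% interval -1.27 to 0.12, limma adjusted p = 0.324). The difference between the changes of the 2 genes was not tested. Hand1 had 0.261 and 0.664 RPM in knockout cells and 1.64 and 1.77 RPM in control cells, and its log2 change of -2.04 was not called (95% interval -3.69 to -0.38, limma adjusted p = 0.0987).

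**Figure D1:**
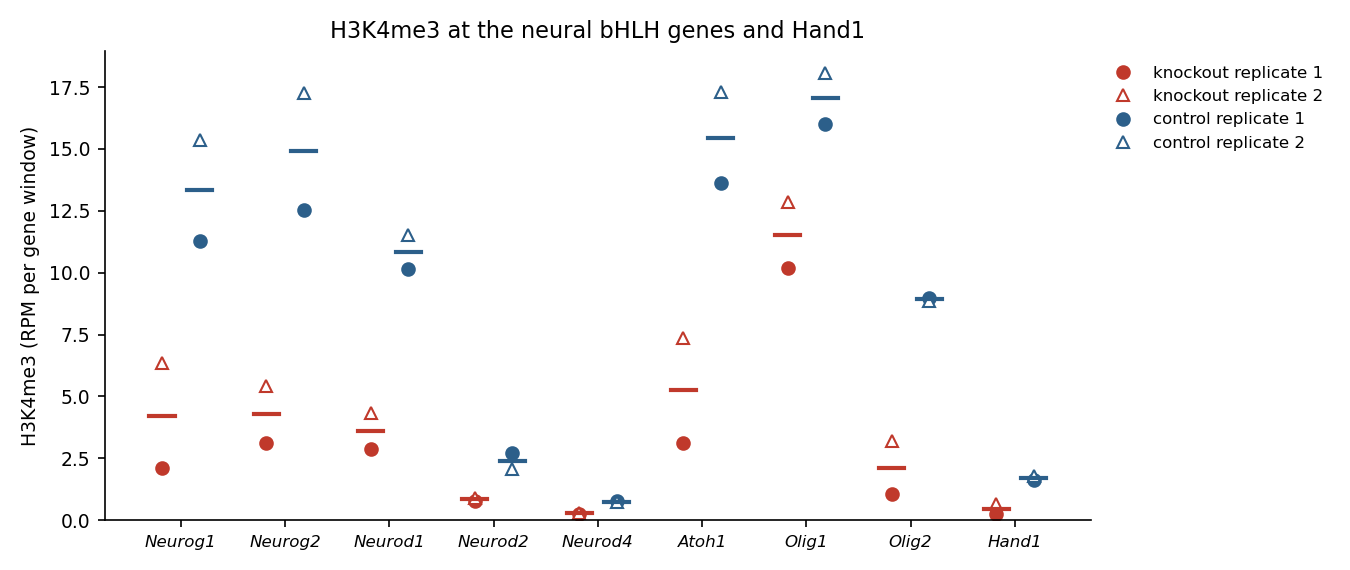
H3K4me3 in RPM per gene window for each of the 9 genes, with both knockout libraries (red, left) and both control libraries (blue, right) as points and the group mean as a bar. At all 9 genes both knockout points lie below both control points, and Olig1 has the highest knockout mean, at 11.5 RPM.

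Both knockout libraries were below both control libraries at all 9 members, as they were at 28.3% of all windows. Ordered by mean level, the 9 genes stood in the same order in knockout and in control cells, with Olig1 highest and then Atoh1, Neurog2, Neurog1, Neurod1, Olig2, Neurod2, Hand1 and Neurod4. Olig1 averaged 11.5 ± 1.88 RPM in knockout cells and 17.0 ± 1.45 RPM in control cells, and Atoh1 averaged 5.25 ± 2.99 and 15.5 ± 2.61 RPM in those groups (SD, n = 2 each). In knockout cells the libraries of Olig1 lay above those of Atoh1, while in control cells the 2 genes overlapped. Atoh1 overlapped Neurog2, Neurog2 overlapped Neurog1 and Neurog1 overlapped Neurod1 in both groups, while Neurod1 and Olig2 overlapped in knockout but not in control cells. Even in control cells the levels were moderate, with 62.4% of all windows below Atoh1 and 50.4% below Olig2.

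Knockout replicate 2 was above knockout replicate 1, the shallow library, at all 9 members. Without replicate 1, the same 5 genes were called lower with smaller log2 changes, from -1.48 at Olig2 to -1.06 at Neurog1 and Atoh1, beside 5.75% of all windows. Without replicate 2, all 8 tested members were called lower, beside 44.2% of all windows. Leaving out either control library left no member and 0% of all windows called lower. Quantile normalization left Neurog2 and Atoh1 called (3.81% of all windows), and the change over input left Neurog1, Neurog2 and Olig2 (2.34%). With limma voom 7 members were called lower, all but Neurod2, beside 26.3% of all windows.

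Windows with a low mean level or with bivalent marks were called lower more often than others across the genome. The mean level was taken over knockout and control libraries together. A fall in knockout cells therefore itself moves a window to a lower level, and the shares by level are in part built in. In windows at a mean log2 RPM of 2 to 3, where Neurog1, Neurog2, Neurod1 and Olig2 stand, 27% were called lower and the median log2 change was -1.13. Between 3 and 4, where Atoh1 and Olig1 stand, 12.9% were called and the median was -0.55. Of windows that were bivalent in control cells 43.7% were called lower, with a median of -1.30, against 4.74% of those with H3K4me3 only. All 4 members that were bivalent in control cells were called lower.

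**Figure D2:**
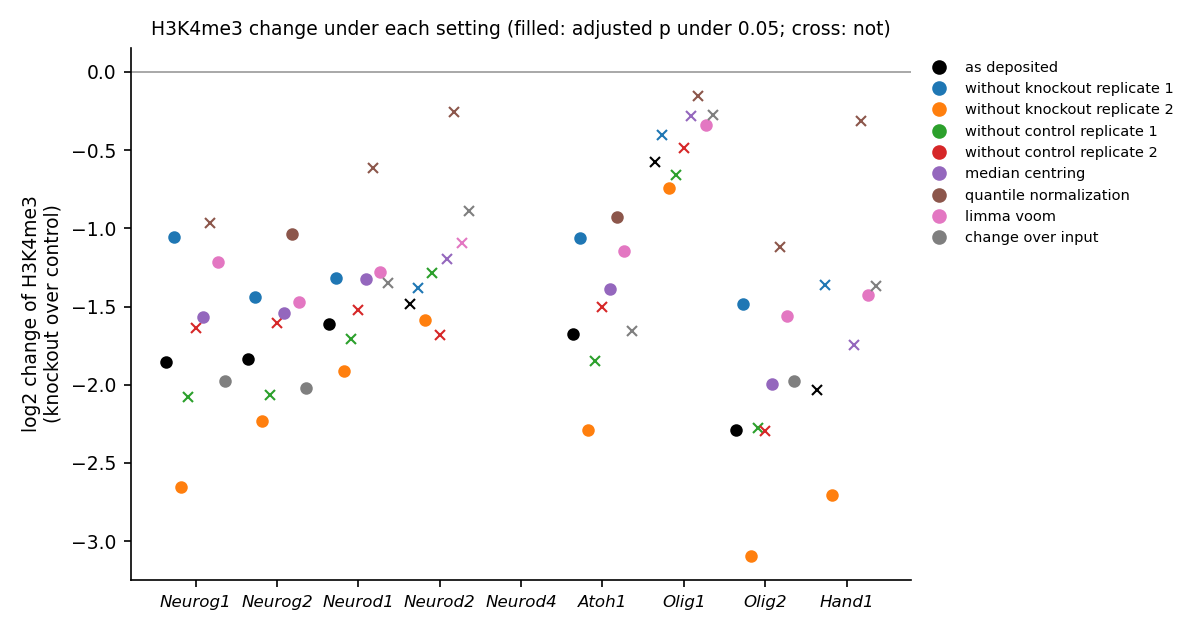
Log2 change of H3K4me3 (knockout over control) for each gene under 9 settings, filled where the limma adjusted p was under 0.05 and crossed where it was not. Every value is below 0, from -3.10 for Olig2 without knockout replicate 2 to -0.16 for Olig1 after quantile normalization. Neurod4 was below the minimum level under these settings.

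H3K27me3 was present at 8 of the 9 members and no change between knockout and control cells was called in the main limma test. Over the matched input it was higher at 8 of the 9 in knockout cells, all but Neurod4, and at 7 of the 8 tested in control cells, all but Olig1 (limma on log2(RPM + 0.5), adjusted p under 0.05). Over all windows tested these shares were 32.9% in knockout and 28% in control cells. Without input replicate 2 the count in control cells was 4, beside 15% of all windows. Between genotypes, 0 of 8 tested members were called by limma or limma voom, and 0 had an unadjusted limma p under 0.05. Of all windows, 0.791% were called higher and 0% lower by limma. With a block for the replicate number in the fit, 3 members were called higher (Atoh1, Neurog2 and Olig1), beside 25.1% of all windows. The median log2 change of the members was 0.45, as it was over all 4807 windows tested, and after centring each library on its median both medians were -0.13.

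Neurod2 carried the most H3K27me3, with 12.9 and 8.26 RPM in knockout cells and 10.4 and 7.32 RPM in control cells. These levels exceeded 99.9% of windows in knockout cells and 99.8% in control cells, and the 2 genotypes overlapped. Hand1 had 9.72 and 5.50 RPM in knockout cells and 9.24 and 7.05 RPM in control cells, with knockout libraries on both sides of the control ones. Its log2 change of -0.14 was the only negative one and was not called (95% interval -1.28 to 1.00, limma adjusted p = 0.954). After centring on the median it was called lower, with a log2 change of -0.72 (limma adjusted p = 0.0279), as were 4.2% of all windows.

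At the genes where H3K4me3 fell, H3K27me3 was still present. Olig2 had 10.4 and 6.45 RPM in knockout cells and 7.94 and 4.58 RPM in control cells, with overlap between the groups. Neurog2 had 10.1 and 5.69 RPM in knockout cells and 5.88 and 3.66 RPM in control cells, and Neurog1 had 8.04 and 4.55 RPM in knockout cells and 5.20 and 3.75 RPM in control cells. At both, knockout replicate 2 fell between the control libraries. The shared Neurod1 and Cerkl window had 5.74 and 4.55 RPM in knockout cells and 5.47 and 2.93 RPM in control cells. The 95% intervals of the log2 changes reached from -0.71 to 1.60 at Olig2, from -0.46 to 1.88 at Neurog2 and from -0.73 to 1.63 at Neurog1, wide enough for a rise or a modest fall.

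Atoh1 and Olig1 had the least H3K27me3 among the members that carried it. Atoh1 had 3.71 and 3.51 RPM in knockout cells and 3.22 and 0.916 RPM in control cells, and was the only member with both knockout libraries above both control libraries, as was the case at 21.5% of all windows. Its log2 change of 1.07 was not called (95% interval -0.02 to 2.16, limma adjusted p = 0.416). Olig1 had 4.93 and 2.09 RPM in knockout cells and 2.19 and 1.28 RPM in control cells (log2 change 0.94, limma adjusted p = 0.4999). Neurod4 had 0.878 and 0.474 RPM in knockout cells and 0.274 and 0.641 RPM in control cells, and was below the minimum level.

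**Figure D3:**
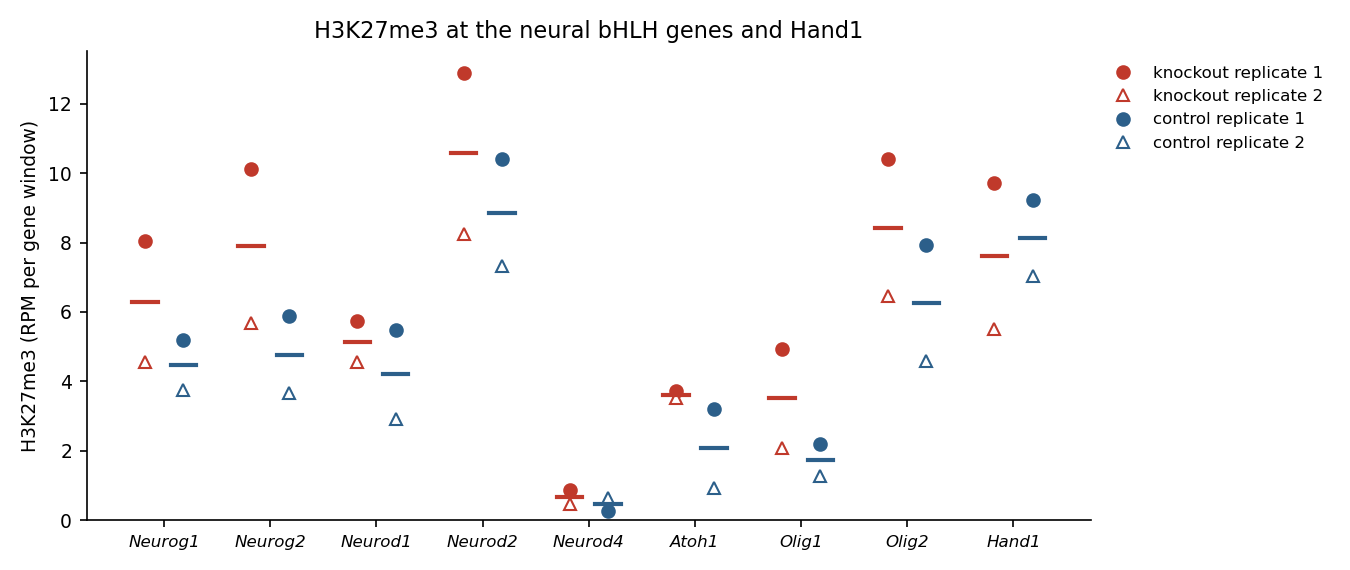
H3K27me3 in RPM per gene window for each of the 9 genes, with both knockout libraries (red, left) and both control libraries (blue, right) as points and the group mean as a bar. Neurod2 has the highest mean in both groups, 10.6 RPM in knockout and 8.86 RPM in control cells, and replicate 1 lies above replicate 2 in both groups at every gene except Neurod4.

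Set side by side, the 2 marks placed the members into promoter classes. The log2 ratio of each library to its same-numbered input (RPM + 0.5) had to reach 1.5 for H3K4me3 and 1 for H3K27me3 in both libraries of a genotype. In knockout cells 2 members were bivalent (Atoh1 and Olig1), 6 had H3K27me3 only and Neurod4 had neither mark. In control cells 4 were bivalent (Neurog1, Neurog2, Neurod1 and Olig2), Atoh1 and Olig1 had H3K4me3 only, Neurod2 and Hand1 had H3K27me3 only, and Neurod4 had neither. Of all windows, 7.42% were bivalent in knockout and 7.67% in control cells, and 5.7% had H3K27me3 only in knockout and 2.11% in control cells. Windows with H3K4me3 only made up 44.2% in knockout and 49.9% in control cells, and those with neither mark 42.7% and 40.4% in those groups.

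These classes turned on single libraries. In knockout cells the H3K4me3 ratio was 1.14 in replicate 1 and 2.51 in replicate 2 at Neurog1, and 1.19 and 2.48 at Neurog2. Neurod1 had 1.00 and 2.51, and Olig2 had 0.74 and 1.54. All 4 thus lost the bivalent class through replicate 1 alone. Atoh1 stayed just inside with 1.74 and 2.80, and it was outside the bivalent class in control cells because its H3K27me3 ratio was 2.10 in control replicate 1 and 0.16 in replicate 2. With a threshold of 1 for both marks, 5 members were bivalent in knockout and 6 in control cells, and with a pseudocount of 1 RPM these counts were 0 and 4.

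**Figure D4:**
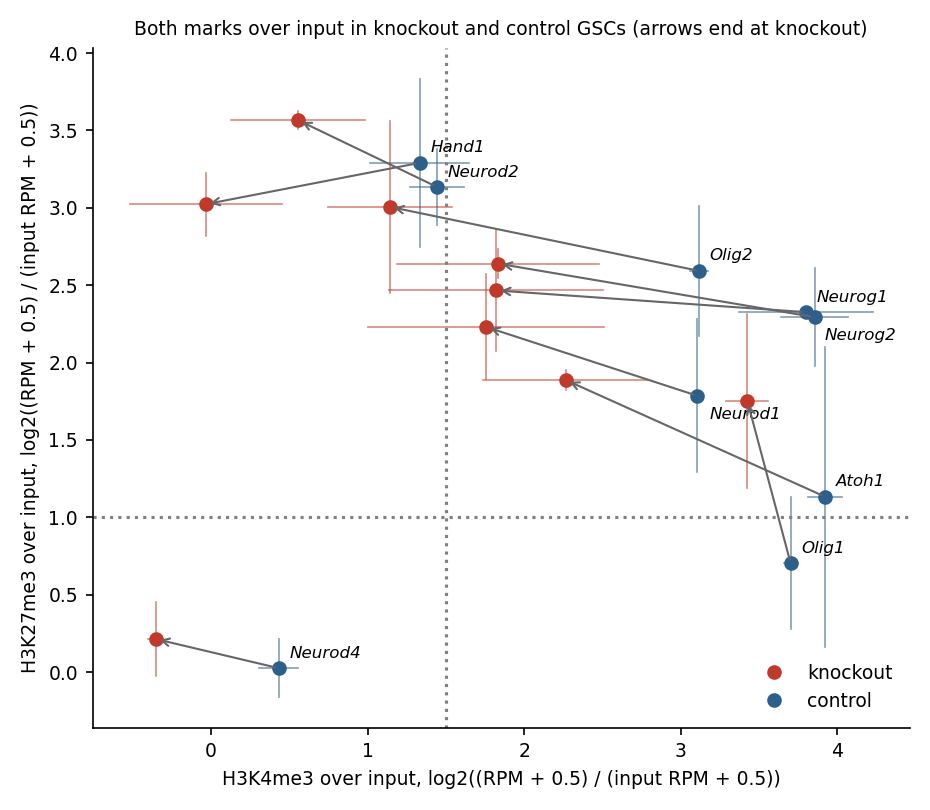
Mean log2 ratio to input of H3K4me3 (horizontal axis) and H3K27me3 (vertical axis) for each gene in knockout (red) and control (blue) cells, with thin lines spanning the 2 libraries and dotted lines at the class thresholds of 1.5 and 1. Every arrow, which ends at the knockout value, points towards less H3K4me3. No difference in H3K27me3 between knockout and control cells was called in the main limma test at any of the 9 genes.

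Over input, H3K4me3 was higher at 6 of the 7 members tested in knockout cells, beside 85.7% of all windows, and at 8 of 9 in control cells, beside 94.9%. Neurod2 lost its call in knockout cells and Hand1 its place above the minimum level, while Neurod4 was not called in control cells. Without input replicate 2 the count in knockout cells was 3, beside 79.9% of all windows. The members' median log2 ratio was 1.82 in knockout and 3.12 in control cells, against 3.64 and 4.00 over all windows tested in those groups. Input DNA had between 0.211 and 1.18 RPM at the members in knockout cells and between 0.182 and 0.972 RPM in control cells. None of the 8 tested differed in input between genotypes by limma or limma voom, none had an unadjusted p under 0.05, and 0% of all windows were called.

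H3K9me3, a mark of heterochromatin measured in control cells only, was near the detection limit. The members had 0 to 11 reads per library, or 0 to 0.217 RPM, against 0.237 to 0.615 RPM in the inputs of that experiment. None had the mean of 0.5 RPM set for the test, which 1337 windows passed, 62.1% of them called higher than input. With no minimum all 9 were called lower than input (limma log2 ratios of -0.81 to -0.41), and so were 81.4% of all windows.

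RNA of the 8 members in the RNA table was at or near 0 in both genotypes, and none reached the mean level of 1 RPM required for the test. A count of 3 reads, the limit used here for a value of 0, corresponds to 0.0655 to 0.0780 RPM in these libraries, counting error only. Neurog1 had 0 and 3 reads in knockout cells and 0 and 2 in control cells, and Neurog2 had 4 and 3 reads in knockout cells and 1 and 4 in control cells. Atoh1 had 1 and 0 reads in knockout cells and Hand1 0 and 1, and neither had any in control cells. Neurod2 likewise had 1 and 1 reads in knockout cells and none in control cells, and Olig2 had 0 and 1 in knockout cells and 1 and 0 in control cells. These 6 genes thus had at most 4 reads in any library, too few for a difference to be detectable at this depth.

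Olig1 and Neurod4 had a few more reads in knockout cells. Olig1 had 5 and 11 reads in knockout cells, or 0.109 and 0.275 RPM, and 3 and 2 reads in control cells, or 0.0780 and 0.0451 RPM. Neurod4 had 2 and 4 reads in knockout cells and 0 and 0 in control cells. At both genes, as at Neurod2, the read counts of the groups did not overlap, and the share of all genes doing so was not counted. With no minimum level limma called 0 of 8 members (adjusted p = 0.274 for Olig1 and 0.230 for Neurod4) and 0% of all 21314 genes. An unadjusted limma p under 0.05 was found at 2 of 8 members. Among the 21314 genes it was found at 2892 with higher and 669 with lower RNA in knockout cells. Summed over the 8 genes there were 13 and 24 reads in the knockout libraries and 5 and 8 in the control libraries. Cerkl, the neighbour of Neurod1, had 1.86 and 2.05 RPM in knockout cells and 1.51 and 1.53 RPM in control cells (limma adjusted p = 0.376).

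RNA of other cells could enter these counts. The 13 neuron and glia markers summed to 50.6 and 57.7 RPM in knockout cells and 39.7 and 39.3 RPM in control cells, with none at 0 and 7 averaging at least 1 RPM. The 15 feeder fibroblast markers summed to 556 and 716 RPM in knockout cells and 507 and 539 RPM in control cells. The 12 Sertoli and Leydig markers in the RNA table summed to 26.1 and 30.6 RPM in knockout cells and 25.3 and 24.8 RPM in control cells, with Cyp17a1 and Hsd3b1 at 0 in all 4 libraries. All 3 sums were higher in both knockout libraries, and their part in the members' reads was not tested. More cells of a type and more RNA per cell cannot be told apart in these bulk libraries.

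Among the other bHLH genes listed here, those called lower in H3K4me3 were in the neural, mesodermal and Hes and Hey groups. The remaining bHLH families were not examined. Of the other neural bHLH genes 4 of 12 tested were called lower and none higher (median log2 change -1.17). Among them Tal2, a midbrain factor, had 1.57 and 5.85 RPM in knockout cells and 13.2 and 12.9 RPM in control cells (limma adjusted p = 0.00533). Bhlhe23, a retinal factor, had 3.39 and 5.73 RPM in knockout cells and 12.4 and 13.9 RPM in control cells, a log2 change of -1.57 (limma adjusted p = 0.0198). Of mesodermal bHLH genes 3 of 14 were called lower (median -1.01), namely the myogenic factor Myf5 at -2.93, the blood factor Tal1 at -1.99 and Tcf21 at -1.78 on the log2 scale. Without knockout replicate 1 the call of Tcf21 was lost, and without either control library no gene of any list described here was called lower in H3K4me3.

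E proteins are the dimer partners of the members, and Id, Hes and Hey proteins act against them. None of the 3 E protein genes (median -0.12) and none of the 4 Id genes (median -0.38) was called by limma, with 1 and 0 genes at an unadjusted p under 0.05, and limma voom called 1 E protein gene higher and no Id gene. Both medians were above 0 after quantile normalization (0.41 for E proteins and 0.02 for Id genes), and that of the E proteins also after centring on the median (0.17) and with voom (0.24). Of 11 Hes and Hey genes 3 were called lower (median -0.997), namely Helt at -1.61, Heyl at -1.49 and Hes6 at -1.29, while without knockout replicate 1 none was. The medians of the neural, mesodermal and Hes and Hey groups stayed below 0 under those scalings, at -0.19, -0.37 and -0.24 after quantile normalization. H3K27me3 was called at 0 of the 31 tested genes of these 5 groups by limma, with 3 at an unadjusted p under 0.05 and 2 called by limma voom. Beside the H3K4me3 counts stand the share of all windows called lower, 9.9%, and that of windows bivalent in control cells, 43.7%. In control cells 8 of 15 other neural, 7 of 18 mesodermal and 3 of 12 Hes and Hey genes were bivalent.

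**Figure D5:**
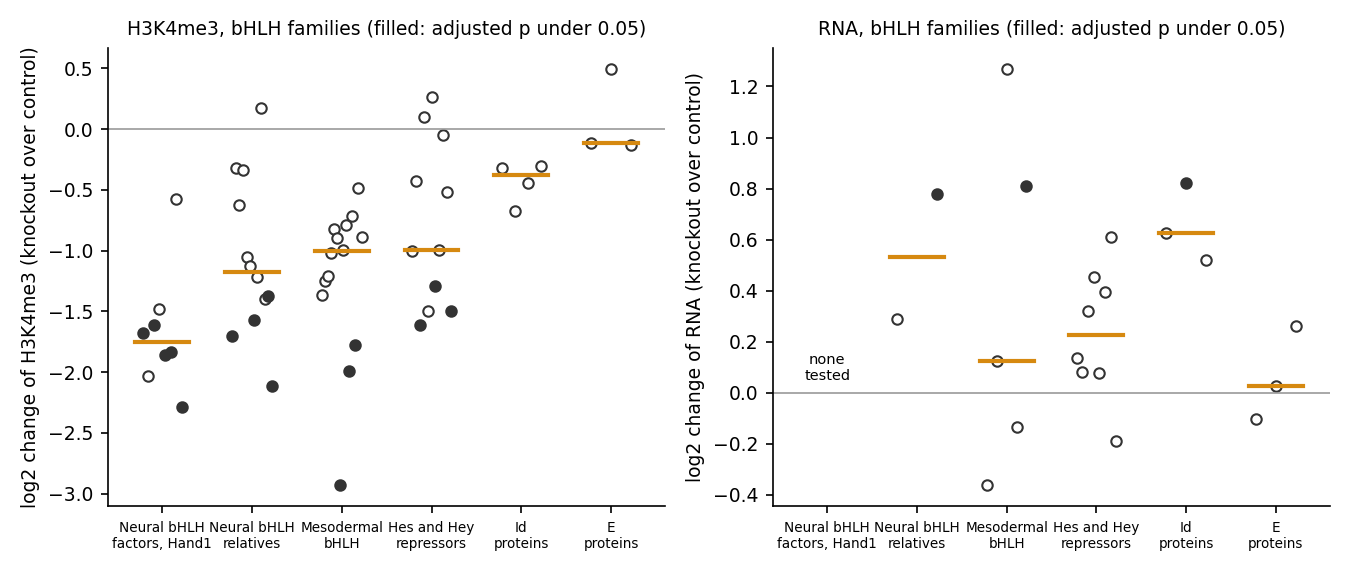
Log2 change (knockout over control) of H3K4me3 (left) and RNA (right) for tested genes of 6 bHLH groups, filled where the limma adjusted p was under 0.05, with the group median as an orange bar. The members have the lowest H3K4me3 median, at -1.76, and E proteins the highest, at -0.12; no member had enough RNA to be tested.

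In RNA, 1 gene was called higher in each of 3 groups, where 3.01% of all genes were called higher and 0.312% lower. All RNA results rest on knockout duplicates that differed from each other more than the control duplicates did. After scaling to total reads, the chi-square per degree of freedom between duplicates was 23.7 in knockout and 2.24 in control cells. Neurog3, a neurogenin relative that is expressed in spermatogonial progenitors, had 44.5 and 45.7 RPM in knockout cells and 28.6 and 24.2 RPM in control cells (log2 change 0.78, limma adjusted p = 0.0255). Twist1, also a fibroblast gene, had 13.96 and 12.2 RPM in knockout cells and 7.05 and 7.84 RPM in control cells (limma adjusted p = 0.0294). Id3 had 6.69 and 6.40 RPM in knockout cells and 3.51 and 3.90 RPM in control cells (limma adjusted p = 0.0345). All 3 groups had no call after quantile normalization, and the calls in the mesodermal and Id groups were also lost after centring on the median, with voom and without control replicate 1. The call of Neurog3 was lost without control replicate 2. No gene of the 8 Hes and Hey genes and 3 E protein genes tested in RNA was called by limma or limma voom, with 4 and 1 at an unadjusted p under 0.05.

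Among genes downstream of the members, 5 of 21 proneural targets were called lower in H3K4me3 (median -0.87) and 2 of 16 higher in RNA. Of all windows tested 9.9% were called lower in H3K4me3, and of all genes tested 3.01% were called higher in RNA. The microtubule regulator gene Stmn2 had 0.261 and 0.362 RPM of H3K4me3 in knockout cells and 2.99 and 2.99 RPM in control cells (limma adjusted p = 0.00709). Among genes upstream, 4 of 16 patterning factors were called lower in H3K4me3 (median -0.89) and 3 of 6 higher in RNA. In control cells 8 of 26 listed proneural targets and 8 of 17 listed patterning factors were bivalent, a class with 43.7% of windows called lower. Dbx1, a spinal cord homeobox gene, had a log2 change of -2.72 in H3K4me3, and Pax6, an activator of Neurog2 in the cortex, had -1.41. Without knockout replicate 1 the H3K4me3 count of the patterning factors was 1 and Pax6 lost its call, and after quantile normalization the count was 0. Their RNA count was 1 without control replicate 1 or after quantile normalization, and the proneural targets had 1 gene called lower in H3K4me3 after quantile normalization and 1 called higher in RNA without control replicate 2. In RNA the homeobox gene Barhl2 was at 13.9 and 14.1 RPM in knockout cells and 2.89 and 1.96 RPM in control cells (limma adjusted p = 0.0141). The zinc finger gene Zic1 was at 10.7 and 8.77 RPM in knockout cells and 1.98 and 2.30 RPM in control cells (limma adjusted p = 0.0141).

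Beside the counts in the marker lists stand the shares over all features, 9.9% called lower in H3K4me3 and 3.01% called higher in RNA. H3K4me3 was called lower at 3 of 8 neuron and glia genes, 1 of 14 germ cell genes, 3 of 12 feeder fibroblast genes and 1 of 6 Sertoli and Leydig genes. RNA was called higher at 2 of 7, 3 of 14, 1 of 14 and 0 of 7 genes of these lists, none of those 7 being called by limma voom and 1 having an unadjusted p under 0.05. Without knockout replicate 1 the H3K4me3 count of neuron and glia genes was 1. In RNA, their count was 0 without control replicate 2, that of the germ cell genes was 1 without control replicate 1, and that of the feeder genes was 0 without either control library. After quantile normalization H3K4me3 was called lower at 2 neuron and glia, 0 germ cell, 1 feeder and 0 Sertoli and Leydig genes. It was then called higher at 2 germ cell and 2 feeder genes. RNA was then called higher at 1 feeder gene and at 0 genes of the other lists. H3K27me3 was called at 0 of 23 tested genes of these lists by limma, with 3 at an unadjusted p under 0.05 and 1 called by limma voom.

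The 5 other genes closest to the median profile of the members were Arid3c, Tnfrsf19, Dpp6, Crb2 and Duoxa2. Likeness was the root mean square difference of log2(RPM + 0.5) over the 12 H3K4me3, H3K27me3 and matched input libraries, which was 0.17 for Arid3c and 0.196 for Crb2 and Duoxa2. Neurog1 itself stood at 0.234 and Neurod1 at 0.299, whereas Neurod4 stood at 2.14, so the median describes the neurogenins, Neurod1 and Olig2 (0.372) better than the other members.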

How the data were processed

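The authors deposited log2 RPM values, for 1 window per gene in 16 chromatin libraries and per gene in 4 RNA libraries, on build mm10. The submitters' processing notes name TopHat2 2.0.14, Bowtie 1.1.1, Trim Galore 0.4.0 and CASAVA 1.8 without their roles, and the strand setting of the RNA counts is not given in the sources used here. Deposited values were whole multiples of a step fixed per library, with 0 reads listed at 0.9 of a step, so reads were recovered (100.0% of values whole within 0.1). A member's reads were shown as RPM from that step.

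Knockout and control libraries, 2 each, were compared with limma 3.58.1 (R 4.3.3, mean-variance trend, two-sided, Benjamini-Hochberg adjustment over all features) at an adjusted p of 0.05. Windows needed a mean of 1 RPM, genes a mean log2 RPM of 0, and ChIP against input a mean of 0.5 RPM on the log2(RPM + 0.5) scale. P-values rest on the spread between duplicate cell lines. In the chromatin fits this spread was taken almost wholly from the trend over windows of similar mean level. The SE and p-value of a window there do not measure how far apart its own replicates stood. Since the unit was log2, no count model was the main test, and limma voom on recovered reads with hand-coded TMM scaling served as an alternative beside other filters, scalings, pseudocounts, a replicate block, change over input and leaving out each library. On simulated data, 67.3% of 2-fold changes in H3K4me3 (log2 1) and 98% of 4-fold changes (log2 2) were recovered. For H3K27me3 these shares were 56% and 97.7%. The simulated reads had the same fixed dispersion at every window and no shift between libraries. These shares therefore need not hold for the real libraries or for the members. The members and gene lists were chosen with earlier results of these data known. Named genes were all members, Kmt2b, up to 3 called genes with the largest change in each list, and the 5 nearest profiles; 1 gene that this rule names is not reported here. No library of another series was in the tables.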

Additional observations from a re-analysis of the deposited data

Results flagged for a closer look

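The loss of H3K4me3 was also tested as a difference between genotypes in the ChIP to input ratio, on the log2(RPM + 0.5) scale. Neurog2 had a difference of -2.02 (SE 0.52, limma adjusted p = 0.0286), Neurog1 of -1.98 (SE 0.54, adjusted p = 0.0343) and Olig2 of -1.98 (SE 0.56, adjusted p = 0.0404). These 3 genes passed this test of the difference itself, beside 2.34% of all windows. Atoh1, with -1.66, and Neurod1, with -1.35, had adjusted p-values of 0.0587 and 0.132 (limma) in the same test.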

How the results depend on the processing

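Of 8 members tested, 5 were called lower in H3K4me3, and the count was also 5 with no filter, a stricter filter, a pseudocount of 0.5 RPM, centring on the median or the replicate block, and 7 with voom. It was 2 after quantile normalization (Neurog2 and Atoh1), 3 as a change over input, and 0 to 8 when 1 library was left out. In H3K27me3 the count was 1 after centring on the median (Hand1, lower, log2 -0.72) and 3 with the replicate block (Atoh1, Neurog2 and Olig1, higher, beside 25.1% of all windows), against 0. The labels do not say that replicate numbers mark pairs. The log2 differences between replicates were correlated between knockout and control cells across windows or genes. The correlation was 0.15 in H3K4me3, 0.06 in H3K27me3 and 0.09 in input and RNA. It leaves out a shift shared by all windows or genes, so it cannot decide whether the numbers mark pairs.

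H3K27me3 changes below the threshold took the other sign at Neurog1 (-0.13), Neurod1 (-0.23), Neurod2 (-0.34) and Olig2 (-0.14) after centring, at Neurod1 (-0.087) after quantile normalization, and at Neurod1 (-0.18), Neurod2 (-0.19) and Olig2 (-0.017) with voom. Leaving out 1 library gave -0.098 to 0.80 at Neurod1, -0.080 to 0.56 at Neurod2 and -0.55 to 0.27 at Hand1, and -0.069 to 0.40 for H3K4me3 at Kmt2b. The cause was not tested.

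Over input, centring on the median left 0 members called higher in H3K4me3 in either genotype, since it sets the median window, itself marked, to 0. Log2 ratios in knockout cells were then -1.87 at Neurog1, -1.86 at Neurog2, -1.93 at Neurod1, -3.13 at Neurod2, -1.42 at Atoh1, -0.26 at Olig1 and -2.55 at Olig2. In control cells they were -0.26 at Neurog1, -0.20 at Neurog2, -0.95 at Neurod1, -2.61 at Neurod2, -3.62 at Neurod4, -0.13 at Atoh1, -0.35 at Olig1, -0.94 at Olig2 and -2.72 at Hand1. Leaving out 1 library gave 3 to 6 members for H3K4me3 in knockout cells and 4 to 7 for H3K27me3 in control cells, lowest without input replicate 2. For H3K9me3, 9 members were called lower with no filter. In knockout cells 5 members were bivalent at a threshold of 1 and 0 with a pseudocount of 1 RPM. With 1 to 12 reads at most members in H3K4me3 knockout replicate 1, small changes were not detectable at this depth.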
